A study of Mus musculus with 31 samples.

Results

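The comparison covers regulatory T cells (Tregs) from the lymph nodes that drain a mammary tumor (TDLN, 3 libraries) and from the spleen (3 libraries) of the same tumor-bearing mouse line, so it comprises 6 of the 31 libraries in the series. The members were taken by tissue and genotype from the labels, and each TDLN library was paired with the spleen library that carries the same date in its title. KEP mice, which carried a tumor, had the genotype K14cre;Cdh1F/F;Trp53F/F on the FVB/N background, each with a spontaneous mammary tumor of 225 mm2. In this model a keratin 14 promoter drives Cre in epithelium and removes floxed Cdh1 and Trp53 there, so the sorted lymphocytes are not the cells in which the promoter is active. Each of the 6 libraries came from 70000 sorted cells of 1 mouse. The labels do not say whether libraries with the same date came from the same mouse, and ages are not given in the sources used here. Healthy littermates, wt;Cdh1F/F;Trp53F/F (WT), kept both floxed alleles without Cre. Their lymph node and spleen libraries (3 each, every one a pool of 3 mice, from 62000 to 70000 cells) serve below to ask where the KEP contrast differs from that of mice without a tumor. With the lung and blood libraries of both genotypes, they also entered the fit of 24 libraries that gave the KEP p-values. In all groups the sort took live CD45+ CD3+ CD4+ CD8- CD25+ cells and used no FOXP3 gate. Since KEP libraries are single mice and WT libraries are pools, the spread between WT libraries averages over animals.

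Tregs are CD4 T cells that restrain other immune cells, under control of the transcription factor FOXP3, and they depend on interleukin 2, which they bind through the high-affinity receptor chain CD25. In lymphoid organs they circulate between blood and tissue. The chemokine receptor CCR7 helps to admit T cells to lymph nodes across high endothelial venules, whereas the sphingosine-1-phosphate receptor S1PR1, a target of the factor KLF2, carries them out again, and T cells reach the spleen from the blood without crossing such venules. Antigen seen through the T cell receptor moves a Treg from this resting, circulating state towards an effector state with more ICOS, CTLA4 and IRF4.

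The sorted cells carried the transcripts their labels call for. Foxp3 stood at 1279.5, 1201 and 1256 CPM (read counts scaled to the same library size for every library, with TMM factors) in TDLN libraries 1 to 3 and at 1289.6, 1128 and 1463 in the spleen libraries. Cd4 ran from 961 to 1078 CPM and Cd3e from 650 to 836 over the 6 libraries, while Cd8a, whose protein was gated out, reached no more than 1.54. Cd3e was called lower in TDLN (log2 fold change -0.22 ± 0.07 SE, adjusted p = 0.0281), though not without the date block. Trp53 was present in all 6, at 210.4, 199.97 and 204 CPM in TDLN and 181, 169 and 174 in spleen, and was called higher in TDLN (log2 fold change 0.23 ± 0.07 SE, adjusted p = 0.0281). Cdh1, an epithelial gene, lay between 0.706 and 3.46 CPM. Total counts ran from 11207373 to 14044495 in TDLN and from 11465657 to 12726090 in spleen, and replicate pairs within each tissue differed by 5.41 to 9.77 in chi-square per degree of freedom, so no 2 of them looked like 1 library deposited in duplicate. The spleen libraries carried more transcripts of other blood cells. Red cell and platelet markers summed to 273.7, 593.1 and 97.5 CPM in spleen libraries 1 to 3 and to 4.36, 2.57 and 1.94 in TDLN, and the 12 of 13 that passed the filter on low counts were called lower in TDLN, with Car1 and Ppbp at 0 in every TDLN library. NK and CD8 T cell markers summed to 132.6, 270.5 and 140.2 CPM in spleen against 41, 51 and 52.2 in TDLN, and markers of gamma-delta and invariant T cells to 58.7, 101 and 36.9 against 16.1, 6.69 and 5.31. Neutrophil markers were at 95.2 CPM in spleen library 3 and between 0.343 and 5.41 in the other 5. Macrophage and monocyte markers summed to between 20 and 45.2 CPM and B cell markers to between 697 and 953 in all 6. Of the 10 B cell markers tested, Cd79b, Cr2 and Ebf1 were lower in TDLN and Ighm was higher (log2 fold change 0.21 ± 0.08 SE). Single markers of some other lists were higher in TDLN, at low levels. Derl3, a protein quality control gene of plasma cells, was at 7.01, 3.603 and 4.805 CPM against 1.01, 0.832 and 0.392. Siglec1, the sialoadhesin of lymph node sinus macrophages, was at 0.749, 1.54 and 1.18 CPM against 0.0845, 0.151 and 0, the dendritic cell receptor gene Xcr1 at 1.29, 1.37 and 2.697 against 0.253, 0.378 and 0.628, and the collagen gene Col3a1 at 0.476, 0.601 and 0.506 against 0, 0 and 0.157. Each was the only member of its list called higher. Of the 13 macrophage and monocyte markers tested, 2 were lower, Itgam (log2 fold change -1.74 ± 0.25 SE) and Vcam1 (-1.56 ± 0.42 SE). No other of the 7 dendritic cell markers tested was called, and their sums overlapped, at 132 to 199.1 CPM in TDLN and 88.2 to 233.6 in spleen. Red cell lysis is stated in the labels for lungs and blood only.

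Of 12825 genes tested across the genome, 2434 (19%) differed between TDLN and spleen Tregs of KEP mice at an adjusted p under 0.05, 1205 (9.4%) higher and 1229 (9.58%) lower in TDLN. The median log2 fold change over all tested genes was 0.02. Changes of at least 2-fold were fewer, with 201 genes higher (1.57%) and 297 lower (2.32%), together 498 (3.88%). The 3 TDLN and 3 spleen libraries did not overlap for 4447 genes (34.7%), and 2197 (17.1%) were both called and without overlap. Most of the 2434 called genes were thus without overlap, so its absence adds little to a call. At an unadjusted p under 0.05 there were 3962 (30.9%). The number called moved with the model: 1420 genes passed without the date block and 247 in a fit without it of all 31 libraries, which adds those of tumor and mammary gland. Leaving out TDLN library 1, spleen library 1 or spleen library 3 left 1525, 1471 and 1618 genes. In bulk RNA, fewer cells that express a gene and less of its RNA per cell cannot be told apart.

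The clearest genes higher in TDLN Tregs were a group of receptors and surface molecules, a Wnt ligand, an early-response transcription factor and a pair of apolipoprotein L genes. By the rule used, 12 genes were named out of 107 that were called, at least 2-fold higher and free of overlap. Wnt10a, a secreted Wnt ligand (chromosome 1, 74791516 to 74804179 of GRCm38), measured 31.5, 26.5 and 29.7 CPM in TDLN and 4.14, 3.63 and 4.71 in spleen (log2 fold change 2.81 ± 0.22 SE, adjusted p = 2.97e-09). Marcksl1, a MARCKS-like actin-binding protein, measured 31.2, 29.1 and 28.1 CPM in TDLN and 10.4, 5.98 and 6.83 in spleen (log2 fold change 1.95 ± 0.14 SE, adjusted p = 2.94e-10). For both genes, as for all named by this rule, the absence of overlap between the tissues was required by the choice. Wnt10a averaged 0.147 ± 0.137 (SD, n = 3) CPM in Tregs of KEP blood and 0.543 ± 0.476 (SD, n = 3) in those of KEP lung, so TDLN had the highest mean of the 4 tissues. Il1r2, the decoy receptor that binds interleukin 1 without signalling, had 27.8, 17.9 and 28.8 CPM in TDLN and 5.997, 4.62 and 5.96 in spleen (log2 fold change 2.15 ± 0.18 SE, adjusted p = 4.04e-09). Apol9b was at 27.5, 26.9 and 26.2 CPM in TDLN and 3.29, 3.63 and 2.904 in spleen (log2 fold change 3.04 ± 0.23 SE, adjusted p = 9.90e-10), and Apol9a at 11.6, 7.89 and 11.97 and 0.760, 1.06 and 1.099 (log2 fold change 3.40 ± 0.35 SE, adjusted p = 1.42e-07). These 2 genes are close copies, so how their reads were divided between them is uncertain.

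Costimulatory and inhibitory receptors were among the same 12. Icos, the inducible costimulator, was at 978, 807 and 925 CPM in TDLN against 375, 397 and 394 in spleen, a log2 fold change of 1.22 ± 0.11 SE (adjusted p = 3.42e-07). Havcr2, which encodes the inhibitory receptor TIM-3, was at 40.5, 22.3 and 37.4 against 11.3, 11.8 and 12.6 CPM (log2 fold change 1.47 ± 0.15 SE, adjusted p = 1.42e-07). For Havcr2, TDLN library 2 was the lowest of its group. Ccr8, a chemokine receptor found on effector Tregs, was at 28.6, 19.2 and 30.4 against 12.5, 7.04 and 15.8 CPM (log2 fold change 1.17 ± 0.13 SE, adjusted p = 7.62e-07). Library 2 was the lowest for Ccr8 in each tissue. The transferrin receptor gene Tfrc, which serves iron uptake, was at 100.3, 70.3 and 58.3 against 36.7, 37.2 and 31.2 CPM (log2 fold change 1.10 ± 0.12 SE, adjusted p = 7.77e-07). Gcnt1, the enzyme that branches core 2 O-glycans of selectin ligands, was at 73.9, 58.4 and 75.8 against 30.8, 33.8 and 36.02 CPM (log2 fold change 1.04 ± 0.09 SE, adjusted p = 1.02e-08). Egr2, described below with its family, and Dnah7a, an axonemal dynein heavy chain (log2 fold change 1.55 ± 0.16 SE), complete the 12. Icos, Il1r2, Ccr8 and Dnah7a did not pass in the fit of all 31 libraries (adjusted p of 0.429, 0.142, 0.535 and 0.352).

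Among the 116 genes that met the same rule in the other direction, the 12 named included regulators of transcription, of a small GTPase and of cyclic nucleotide signalling. Klf3, a Krüppel-like transcriptional repressor, fell from 154, 186 and 201 CPM in spleen to 63.6, 81.2 and 74.01 in TDLN (log2 fold change -1.30 ± 0.08 SE, adjusted p = 3.26e-11). Gfi1, a zinc finger repressor, was at 9.46, 11.2 and 11.6 CPM in TDLN and 39.03, 40.9 and 49.4 in spleen (log2 fold change -2.00 ± 0.14 SE, adjusted p = 5.89e-10). Pde2a, a phosphodiesterase that breaks down cyclic AMP and cyclic GMP, was at 141, 156 and 139 against 478, 378 and 534 CPM (log2 fold change -1.67 ± 0.11 SE, adjusted p = 1.55e-09). For these 3 genes too, the rule required that no TDLN library overlap a spleen library. Rap1gap2, which switches off the GTPase Rap1, an activator of integrins, was at 21.2, 17.2 and 26.05 against 67.2, 57.1 and 99.1 CPM (log2 fold change -1.78 ± 0.11 SE, adjusted p = 5.96e-11). Nhsl2 (chromosome X, 101849385 to 102092055) had the smallest p of all genes tested, at 8.37, 6.26 and 8.26 against 39.4, 27.2 and 45.7 CPM (log2 fold change -2.28 ± 0.13 SE, adjusted p = 1.03e-11). Art2b, an ADP-ribosyltransferase on the T cell surface, fell furthest of the 12, from 13.4, 14.98 and 17.3 CPM in spleen to 1.36, 1.54 and 1.85 (log2 fold change -3.27 ± 0.29 SE, adjusted p = 3.61e-08). The others were Dtx4, a Deltex ubiquitin ligase linked to Notch (-1.77 ± 0.13 SE on the log2 scale), Padi2, a peptidylarginine deiminase (-1.32 ± 0.11 SE), Osgin1 (-1.88 ± 0.18 SE), Trim46 (-1.59 ± 0.13 SE), the glypican gene Gpc1 (-1.32 ± 0.12 SE) and Gimap7. Gfi1, Klf3, Pde2a, Padi2, Gpc1, Trim46 and Gimap7 overlap other annotated genes, as do Foxp3, Ikzf2, Ikzf4, Foxp1, Bach2, Gata3, Rora, Stat4, Ccr9, Gpr15, Irf7, Gbp4, Bcl3, Pim1, Cyp2s1, Gimap5, Zfp36l1 and Pxdc1 among the genes tested by list or difference. The strand setting of the counting is not given in the sources used here, so the counts of these genes are uncertain where the overlapping partner is expressed. All 24 leading genes kept their call without the date block, and 19 of the 24 passed in the fit of all 31 libraries.

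**Figure D1:**
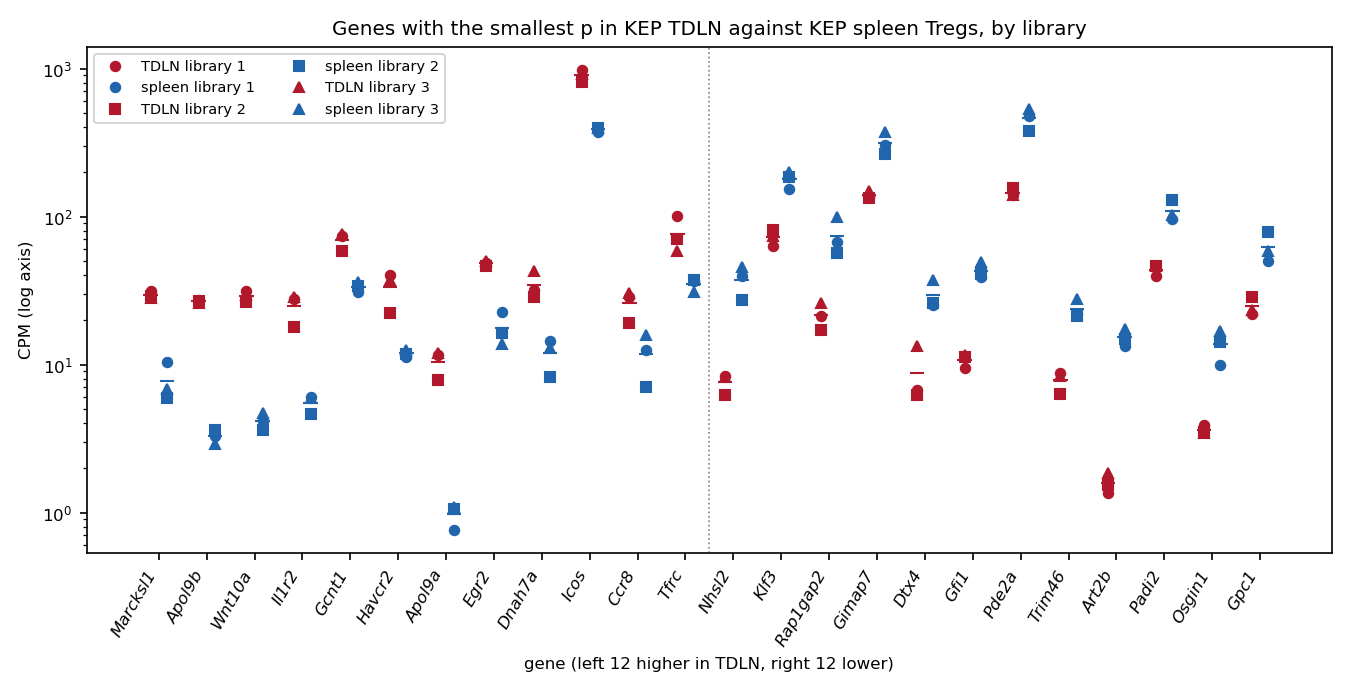
Levels in CPM (log axis) of the 12 genes named as higher and the 12 named as lower in TDLN, with a point for each of the 3 TDLN (red) and 3 spleen (blue) libraries, matching marker shapes for libraries that share a title date, and short bars at the means. The rule that chose these genes required that red and blue points not overlap. Among the genes so chosen, Art2b, Apol9a, Apol9b and Wnt10a show the widest gaps.

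The genes that define a Treg did not move together. Of 13 on the list, 6 were higher in TDLN, 1 was lower and 6 did not pass, with a median log2 fold change of 0.27. For this and each later list, the share over all genes tested was 9.4% higher and 9.58% lower. Foxp3 itself gave a log2 fold change of -0.05 ± 0.08 SE (adjusted p = 0.704) and Ikzf2, which encodes the Treg factor Helios, -0.02 ± 0.11 SE (adjusted p = 0.928), and for both the libraries of the 2 tissues overlapped. Il2ra, which encodes CD25 and so the protein on which the cells were sorted, was at 1168, 995 and 1094 CPM in TDLN and 591, 524 and 707 in spleen (log2 fold change 0.84 ± 0.08 SE, adjusted p = 3.61e-08). Lrrc32 (GARP), which displays latent TGF-beta on the Treg surface, was at 61.5, 69.3 and 54.96 against 31.8, 27.2 and 24.96 CPM (log2 fold change 1.14 ± 0.17 SE, adjusted p = 0.000179). The checkpoint receptor gene Ctla4 was at 629, 561 and 638 against 346, 327 and 423 CPM (log2 fold change 0.74 ± 0.14 SE, adjusted p = 0.00188), and without the date block its adjusted p was 0.0593. Ikzf4, the gene of the Ikaros family member Eos, was higher as well (log2 fold change 0.57 ± 0.09 SE, adjusted p = 5.32e-05). The member that was lower in TDLN was Nrp1, the semaphorin co-receptor neuropilin 1, at 215, 167 and 218 CPM against 371, 255 and 403 (log2 fold change -0.76 ± 0.08 SE, adjusted p = 7.46e-08).

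Effector differentiation genes moved in both directions. Of 20, 7 were higher in TDLN, 5 were lower and 8 did not pass, and the median was -0.07. Besides Icos, the higher ones included Irf4, the transcription factor that drives effector Tregs, at 289.9, 208 and 224 CPM in TDLN and 118, 97.9 and 123 in spleen (log2 fold change 1.09 ± 0.11 SE, adjusted p = 9.33e-07), and Cd86, a ligand of CD28 and CTLA4, at 29.1, 23.6 and 34.9 against 11.7, 11.05 and 14.7 CPM (log2 fold change 1.23 ± 0.14 SE, adjusted p = 1.09e-06). The lower ones included S100a11 (log2 fold change -0.62 ± 0.08 SE, adjusted p = 1.92e-06) and S100a6 (-0.58 ± 0.10 SE, adjusted p = 0.000395), both genes of small calcium-binding proteins. Klrg1, a lectin-like receptor of terminally differentiated T cells, was picked from the list after its values were seen. It fell to 80.2, 60.5 and 91.96 CPM from 281, 141 and 336 in spleen (log2 fold change -1.65 ± 0.15 SE, adjusted p = 2.36e-06), and spleen library 2 was the lowest of the spleen group. Of 17 inhibitory receptors and suppressive mediators tested, 2 were higher and none was lower, beside 9.4% higher and 9.58% lower of all genes tested. The count of higher members was thus near the share over all genes. The 2 were Havcr2 and Lag3. Lag3, the gene of an MHC class II binding inhibitory receptor, was at 56.7, 36.7 and 42.5 CPM against 33.6, 19.4 and 19.5 (log2 fold change 0.93 ± 0.14 SE, adjusted p = 2.82e-05). In the first TDLN and the first spleen library Lag3 was highest of its group. The genes of PD-1, TIGIT, granzyme B and interleukin 10 did not pass, with log2 fold changes of -0.02 ± 0.12 SE for Pdcd1, 0.07 ± 0.15 SE for Tigit, 0.19 ± 0.20 SE for Gzmb and 0.18 ± 0.31 SE for Il10.

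**Figure D2:**
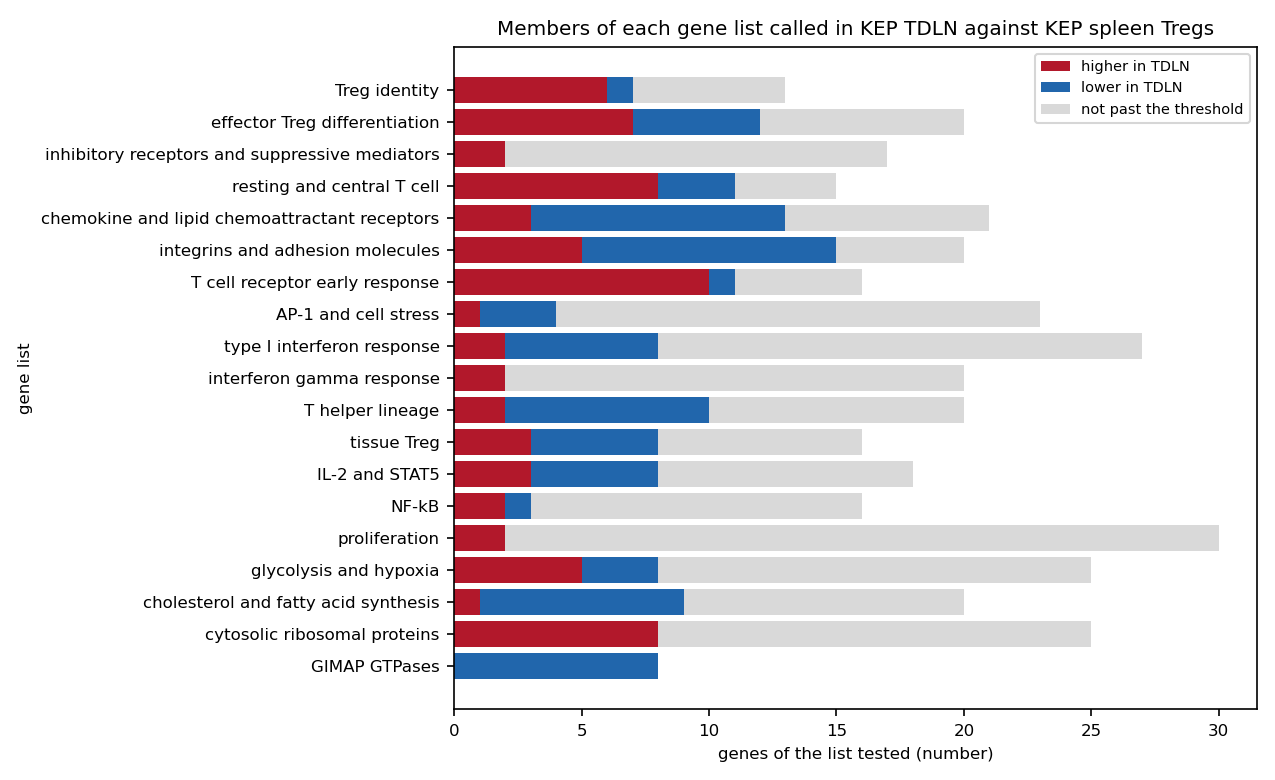
Number of tested members of each of 19 gene lists that were called higher (red) or lower (blue) in KEP TDLN than in KEP spleen Tregs, or did not pass (grey). The T cell receptor list has the most higher members (10 of 16), the chemoattractant receptor and integrin lists each have 10 lower, and all 8 GIMAP genes are lower. Over all genes tested, 9.4% were called higher and 9.58% lower.

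Early-response genes of the T cell receptor were the list with the most members higher in TDLN: 10 of 16 were higher, 1 was lower and 5 did not pass, with a median of 0.54. The EGR and NR4A families, transcription factors induced soon after receptor engagement, led it. Egr2 was at 48.6, 46.6 and 50.2 CPM in TDLN and 22.7, 16.3 and 13.8 in spleen (log2 fold change 1.49 ± 0.15 SE, adjusted p = 2.12e-07), and Egr1 at 104, 102 and 94.2 against 54.8, 48.8 and 45.8 (log2 fold change 1.01 ± 0.14 SE, adjusted p = 8.28e-05). Nr4a3 was at 41.6, 29.9 and 32.5 against 15.04, 16.2 and 16.4 CPM (log2 fold change 1.10 ± 0.16 SE, adjusted p = 0.000163). In all 3 genes each TDLN library exceeded each spleen library, which for Egr2 the rule that named it required. Egr1 and Nr4a3 were named as called members with a small p, and 2197 of the 2434 called genes were without overlap. Over all genes tested, 34.7% showed no overlap in either direction. Cd69, an early activation antigen that also antagonises S1PR1, was at 83.4, 94.1 and 77.04 against 51.9, 54.1 and 53.99 CPM (log2 fold change 0.67 ± 0.11 SE, adjusted p = 0.000123), and Rel, the NF-kB subunit c-Rel, at 32.3, 35.2 and 33.3 against 22.5, 25.9 and 21.1 (log2 fold change 0.54 ± 0.11 SE, adjusted p = 0.00117). The other higher members were Egr3, Nr4a1, Nfkbid, Dusp2 and Myc, with log2 fold changes between 0.53 and 1.02. Nfatc1 was the lower one (-0.28 ± 0.07 SE). Dusp2 and Nfatc1 did not pass without the date block (adjusted p of 0.0703 and 0.0545). The broader AP-1 and cell stress list had 1 of 23 higher (Zfp36l1, an RNA-binding protein that promotes mRNA decay, log2 fold change 0.40 ± 0.07 SE), 3 lower (Ier3, Klf6 and Zfp36) and a median of -0.08. Its called share was near the 19% of all genes tested (9.4% higher and 9.58% lower). Fos and Jun were among the 19 that did not pass, at -0.03 ± 0.52 SE and 0.23 ± 0.38 SE. Of 16 NF-kB genes, 2 were higher (Rel and Cd83) and 1 lower (Bcl3), against 1 and 0 without the block and 2 and 0 without spleen library 2 or without spleen library 3. The share of NF-kB genes called was also near that of all genes.

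Genes of the resting, recirculating T cell state were mostly higher in TDLN. Of 15, 8 were higher, 3 lower and 4 did not pass, and the median was 0.38. Ccr7, the receptor of lymph node entry, was at 323, 400.3 and 338 CPM in TDLN and 168, 181 and 148 in spleen (log2 fold change 1.09 ± 0.22 SE, adjusted p = 0.00352). It was higher in TDLN in 3 of 3 pairs, and highest in library 2 of each tissue. Foxp1, a factor that holds T cells in quiescence, was at 184, 232 and 193 against 119.9, 149.9 and 116 CPM (log2 fold change 0.66 ± 0.07 SE, adjusted p = 4.86e-07). Bach2, a repressor of effector programmes, was at 76.6, 109.6 and 77.3 against 50.01, 54.7 and 37.7 CPM (log2 fold change 0.88 ± 0.14 SE, adjusted p = 0.000253). Genes of lymph node exit lay the other way: Klf2 was at 174, 212 and 217 CPM in TDLN and 276, 242 and 332 in spleen (log2 fold change -0.50 ± 0.09 SE, adjusted p = 0.000360), and S1pr1 at 375, 461 and 375 against 476, 481 and 614 (log2 fold change -0.37 ± 0.09 SE, adjusted p = 0.00441). The S1pr1 call did not pass without TDLN library 3 (adjusted p = 0.0756). Tcf7, which encodes TCF-1, did not pass (0.45 ± 0.21 SE). Without spleen library 2 the list stood at 5 higher and 3 lower, and Ly6c2, the other lower member, at a log2 fold change of -3.12 ± 0.61 SE with all libraries, is an antigen of memory T cells and monocytes alike.

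Chemoattractant receptors other than Ccr7 and Ccr8 were mainly lower in TDLN. Of 21 receptors 3 were higher, 10 lower and 8 did not pass, with a median of -0.50. Ccr9, the receptor for homing to the small intestine, was at 2.04, 2.75 and 0.506 CPM in TDLN and 9.88, 17.2 and 16.9 in spleen (log2 fold change -3.04 ± 0.34 SE, adjusted p = 4.46e-06). Ccr4, a receptor for homing to skin and inflamed tissue, was at 186, 132 and 185 against 273, 257 and 359.8 CPM (log2 fold change -0.82 ± 0.11 SE, adjusted p = 1.76e-05). Gpr15, which guides T cells to the colon, was at 9.73, 6.95 and 20.7 against 19.3, 13.8 and 40.3 CPM (log2 fold change -0.97 ± 0.13 SE, adjusted p = 4.46e-06). For Gpr15 library 3 was the highest in both tissues and the groups overlapped, though each TDLN library was lower than its spleen partner. Its adjusted p without the date block was 0.191. The remaining lower receptors were S1pr1, Gpr183, S1pr4, Cxcr3, Cxcr5, Ccr2 and Ccr3, at log2 fold changes from -1.40 to -0.37, and the third higher one was Ptger4 (0.27 ± 0.08 SE).

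Integrins were also mainly lower. Of 20 integrin and adhesion genes 5 were higher, 10 lower and 5 did not pass (median -0.29). Itgb3, the beta-3 chain, was at 53.97, 54.05 and 61.1 CPM in TDLN and 229, 186 and 180.3 in spleen (log2 fold change -1.81 ± 0.14 SE, adjusted p = 9.41e-08). Itgb1, the beta-1 chain shared by the very late antigens, was at 468, 338 and 398 against 733, 582 and 816 CPM (log2 fold change -0.82 ± 0.09 SE, adjusted p = 2.03e-07). Itgb7, the partner chain of alpha-4 and alpha-E, was at 1043, 1051 and 1123 against 1486, 1412 and 1742 CPM (log2 fold change -0.52 ± 0.07 SE, adjusted p = 2.84e-06). These 3 beta chains were lower in each TDLN library than in any spleen library. They were named as called members with a small p, and 2197 of the 2434 called genes were without overlap. Over all genes tested, 34.7% showed no overlap in either direction. The alpha chains differed among themselves: Itga4 was lower (-0.97 ± 0.23 SE), as were Itga1, Itga2 and Itgal, while Itgae, the alpha-E chain CD103, was higher at 817, 699 and 856 against 366, 438 and 434 CPM (log2 fold change 0.95 ± 0.15 SE, adjusted p = 0.000424), and so was Itga6 (0.28 ± 0.07 SE). Itgb8, whose product activates latent TGF-beta, was higher as well (0.64 ± 0.15 SE). Gcnt1 was among the higher members too. Besides that gene and the 3 beta chains, the members named here were picked after their values were seen.

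**Figure D3:**
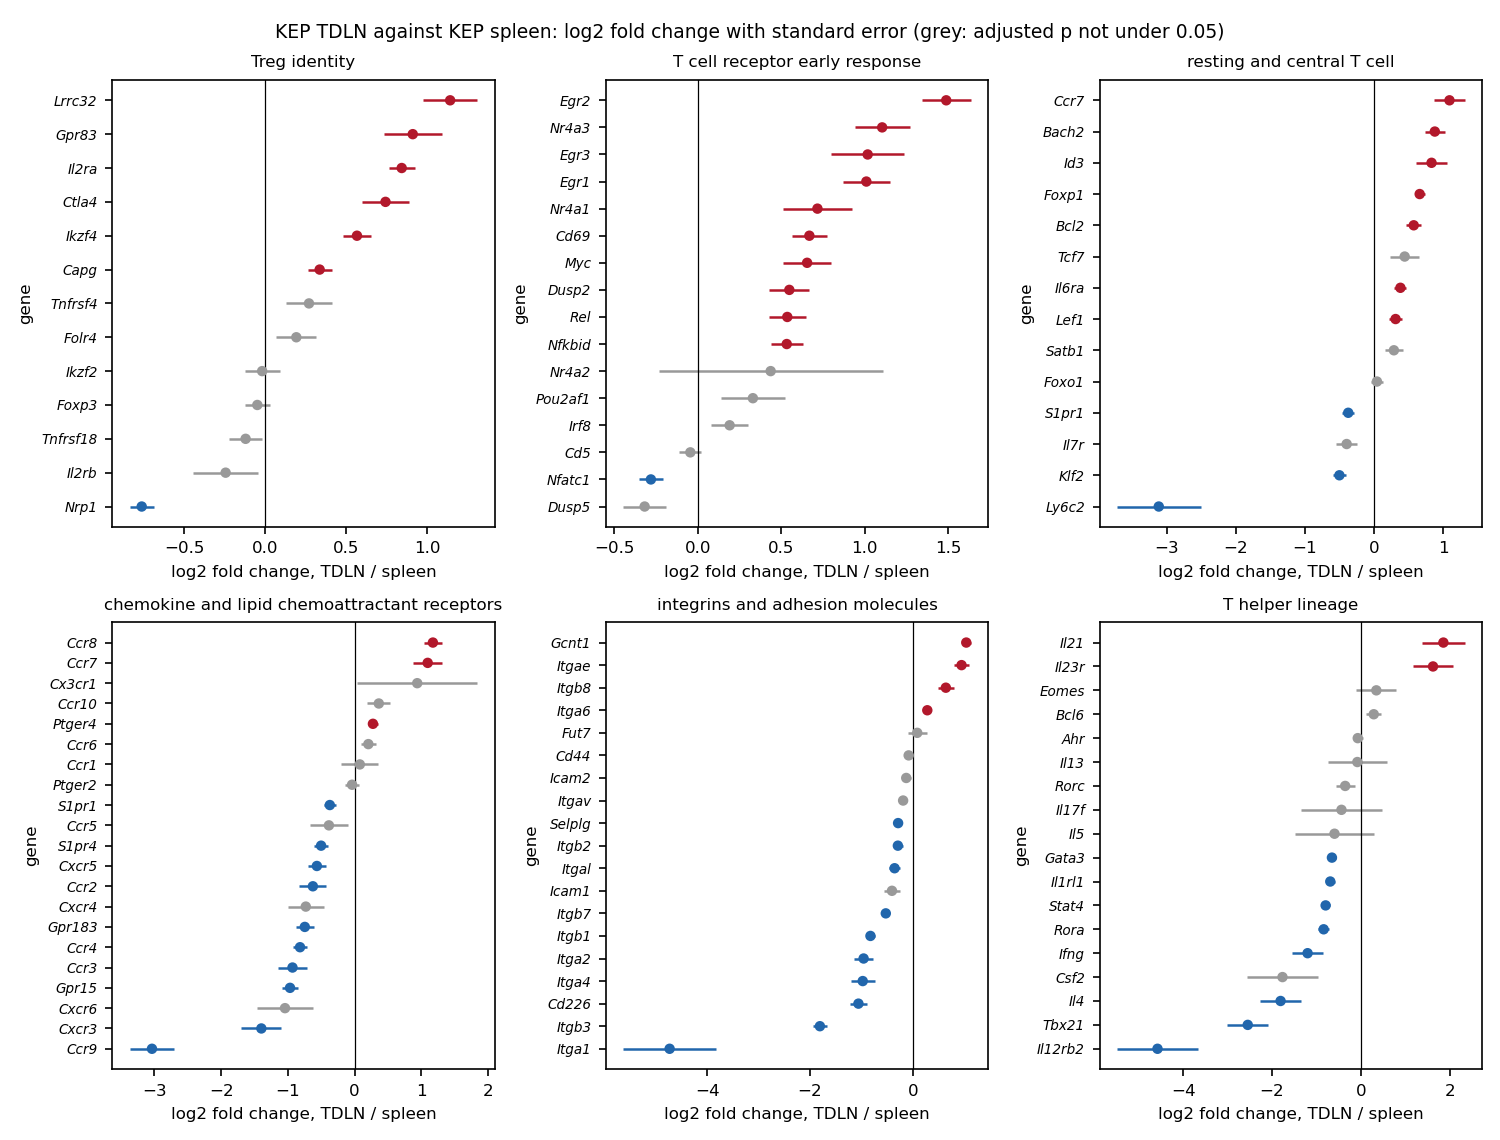
Log2 fold change of KEP TDLN against KEP spleen (points) with its standard error (lines) for the members shown of 6 gene lists, red where called higher, blue where called lower and grey where the adjusted p was not under 0.05. Il17a and Il22, at 0 counts in all 6 libraries, are left out of the T helper panel, where 8 genes are lower and 2 higher.

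T helper lineage genes were lower in TDLN for 8 of 20 and higher for 2, Il21 and Il23r (median -0.51). Rora, a nuclear receptor of type 2, type 17 and tissue lymphocytes, was at 96.98, 93.2 and 119 CPM in TDLN and 177, 192 and 182 in spleen (log2 fold change -0.84 ± 0.12 SE, adjusted p = 8.60e-05). Gata3, the factor of type 2 helper cells that also marks tissue Tregs, was at 136, 113 and 153 against 239.6, 175 and 219 CPM (log2 fold change -0.65 ± 0.09 SE, adjusted p = 9.55e-06). Il1rl1, its target that encodes the interleukin 33 receptor ST2, was at 292, 218 and 321 against 498, 329.6 and 519 CPM (log2 fold change -0.69 ± 0.10 SE, adjusted p = 5.32e-05). Stat4, which transmits interleukin 12 signals, was at 39.8, 41.4 and 43.1 against 63.9, 71.3 and 80.05 CPM (log2 fold change -0.79 ± 0.10 SE, adjusted p = 1.92e-06). Tbx21 and Il12rb2, the type 1 helper factor T-bet and an interleukin 12 receptor chain, were picked after their values were seen. Tbx21 was at 8.58, 6.43 and 8.68 against 35.5, 75.7 and 39.2 CPM (log2 fold change -2.55 ± 0.46 SE, adjusted p = 0.00190) and Il12rb2 at 0.613, 1.29 and 0.421 against 14.2, 28.4 and 11.3 (log2 fold change -4.58 ± 0.91 SE, adjusted p = 0.00364). Cells other than Tregs also express several of these genes, and their markers moved the same way. Zbtb16, the PLZF factor of invariant T cells, was at 1.63, 1.37 and 1.096 CPM in TDLN and 25.7, 49.1 and 17.5 in spleen (log2 fold change -4.46 ± 0.57 SE, adjusted p = 0.000163), Klrb1c (NK1.1) at 8.17, 6.61 and 10.8 against 28.6, 64.02 and 36.6 (adjusted p = 0.00159) and the gamma chain gene Tcrg-C2 at 0.476, 0.515 and 0.843 against 11.2, 20.1 and 5.73 (adjusted p = 0.000625). Spleen library 2 was the highest of all 6 for Tbx21, Il12rb2, Zbtb16, Klrb1c and Tcrg-C2. Of the NK and CD8 T cell markers 4 of 7 tested were lower in TDLN, of the gamma-delta and invariant T cell markers 5 of 7, while 1 of the former, Cd8a, was higher. Ncr1, the defining receptor of NK cells, had a mean of 0.0508 CPM in TDLN and 0.0543 in spleen. Without spleen library 2 the T helper list stood at 2 higher and 7 lower, and without spleen library 3 at 1 and 8. The part of such cells in the T helper result was not tested.

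Tissue Treg genes were called in both directions, with 3 of 16 higher (Il1r2, Ccr8 and Tff1), 5 lower (Gata3, Il1rl1, Rora, Il18rap and Pparg) and a median of -0.05. Il18rap, an interleukin 18 receptor chain, was at 56.5, 50.6 and 77.5 CPM in TDLN and 116, 183 and 165 in spleen (log2 fold change -1.31 ± 0.21 SE, adjusted p = 0.000864). Spleen library 2 was the highest for Il18rap, as for the summed markers of NK and CD8 T cells and of gamma-delta and invariant T cells. The part of such cells in its change was not tested. Pparg, a nuclear receptor of fat-resident Tregs, was low throughout, at 1.701, 0.172 and 1.26 against 7.69, 1.29 and 4.71 CPM, and did not pass without the date block (adjusted p = 0.144). Il18rap and Pparg were named after their values were seen.

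Genes around interleukin 2 and STAT signalling moved both ways, with 3 of 18 higher (Il2ra, Pim2 and Bcl2), 5 lower and 10 that did not pass. Socs3, the feedback inhibitor of interleukin 6 and STAT3 signalling, was at 156, 157 and 167 CPM in TDLN and 472, 438 and 351 in spleen (log2 fold change -1.38 ± 0.14 SE, adjusted p = 4.46e-06). It also passed in the fit of all 31 libraries (adjusted p = 3.85e-05), as did 35 of the 113 named genes called in KEP mice, Socs3 included. The kinase genes Pim1 and Pim2, both cytokine-induced, lay in opposite directions: Pim1 was at 431, 421 and 429 against 692, 605 and 716 CPM (log2 fold change -0.65 ± 0.08 SE, adjusted p = 2.12e-06) and Pim2 at 77.1, 70.9 and 62.8 against 53.05, 46.2 and 45.5 (log2 fold change 0.54 ± 0.10 SE, adjusted p = 0.000263). Osm, Stat5b and Jak3 were the other lower members, by 0.28 to 0.45 on the log2 scale. All 8 GIMAP genes, GTPases of immunity-associated proteins that serve lymphocyte survival, were lower in TDLN (median -0.69). Gimap7 was at 135, 133 and 149.9 CPM against 305, 264 and 374 (log2 fold change -1.16 ± 0.08 SE, adjusted p = 7.71e-11), Gimap3 at 385, 452 and 448 against 714, 737 and 919.99 (log2 fold change -0.88 ± 0.08 SE, adjusted p = 1.46e-08), and Gimap9 had the smallest change (-0.25 ± 0.07 SE). The GIMAP genes lie in 1 cluster on chromosome 6, so they are not independent of each other, and 7 of 8 passed without the date block.

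Interferon response genes were called in both directions. Of 27 type I interferon response genes tested, 2 were higher in TDLN and 6 lower (median -0.15), beside 9.4% higher and 9.58% lower of all genes tested, and against 0 and 4 without the date block and 1 and 4 without spleen library 2. Oas3 and Oas1a, sensors of double-stranded RNA, were lower, at 27.1, 16.6 and 18.8 against 47.7, 30.3 and 31.2 CPM for Oas3 (log2 fold change -0.80 ± 0.13 SE, adjusted p = 4.80e-05) and at a log2 fold change of -0.74 ± 0.12 SE for Oas1a (adjusted p = 7.37e-05). Of 20 interferon gamma response genes, the GTPase genes Iigp1 (0.88 ± 0.21 SE, adjusted p = 0.0108) and Gbp4 (0.40 ± 0.08 SE, adjusted p = 0.00145) were higher and none was lower (median 0.02). The count of higher genes was near the 9.4% over all genes tested. Gbp4 had an adjusted p of 0.213 without the block and Iigp1 of 0.0653 without TDLN library 1.

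Sterol and lipid genes were lower in TDLN for 8 of 20 and higher for 1 (median -0.28), against 5 and 1 without the date block and also without spleen library 3. Srebf2, the master regulator of cholesterol synthesis, was at 217, 264 and 244 CPM in TDLN and 286, 309.9 and 309 in spleen (log2 fold change -0.32 ± 0.08 SE, adjusted p = 0.00360). The libraries of the 2 tissues did not overlap for Srebf2, as for 34.7% of all genes tested and for most of the called genes. The exception was the desaturase gene Scd2, at 161, 149 and 161 against 61.1, 78.3 and 43.01 CPM (log2 fold change 1.42 ± 0.19 SE, adjusted p = 0.000133), likewise without overlap. Of 25 glycolysis and hypoxia genes 5 were higher and 3 lower (median -0.04), against 2 and 2 without the block and 2 and 1 without spleen library 2. Hk2, an inducible hexokinase, was higher from a low level (log2 fold change 1.22 ± 0.23 SE, adjusted p = 0.000391), while the glucose transporter gene Slc2a3 was lower (-0.41 ± 0.07 SE, adjusted p = 0.000176).

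Of 30 proliferation genes, 2 were called higher and none lower, with a median of 0.36, beside 9.4% higher and 9.58% lower of all genes tested. The count of higher members was thus no more than the share over all genes. None passed in edgeR without the date block, where 3169 of all genes had an unadjusted p under 0.05. Mcm6, a subunit of the replicative helicase, was at 228, 96.6 and 127 CPM in TDLN and 118, 87.8 and 93.2 in spleen (log2 fold change 0.53 ± 0.17 SE, adjusted p = 0.0469), and Pcna, the replication clamp, at 156, 90.7 and 101 against 103, 85.1 and 83.7 (log2 fold change 0.33 ± 0.09 SE, adjusted p = 0.00975). TDLN library 1 was far above the others for Mcm6, and the tissues overlapped for both genes. Without spleen library 2, or without spleen library 3, 1 proliferation gene was called. The adjusted p of Mcm6 was 0.274 without spleen library 1 and that of Pcna 0.181 without TDLN library 1. Mki67 gave 0.21 ± 0.20 SE and did not pass. Of 25 cytosolic ribosomal protein genes 8 were higher and none lower (median 0.17), against 3 without the block and 3 without spleen library 2 or without spleen library 3. Rps20 had the smallest p of these, at 853, 970.1 and 885 CPM against 744, 637 and 599.8 (log2 fold change 0.46 ± 0.09 SE, adjusted p = 0.000546).

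In healthy mice the same tissue contrast called 1871 genes (14.6%), 962 higher (7.5%) and 909 lower (7.09%) in lymph node than in spleen. Of the genes higher in KEP TDLN, 560 were also called higher in WT lymph node, which is 46.5% of the KEP and 58.2% of the WT genes, and none was called lower there. Of the genes lower in KEP TDLN, 631 were also lower in WT lymph node (51.3% of the KEP and 69.4% of the WT genes) and 12 were called higher there. Egr2, Icos and Irf4 had WT log2 fold changes of 1.64 ± 0.15, 1.49 ± 0.11 and 1.37 ± 0.11 SE, beside 1.49 ± 0.15, 1.22 ± 0.11 and 1.09 ± 0.11 in KEP mice. Klf3, Gfi1, Itgb3 and Socs3 had -1.23 ± 0.08, -2.20 ± 0.14, -1.13 ± 0.14 and -1.08 ± 0.14 SE beside -1.30 ± 0.08, -2.00 ± 0.14, -1.81 ± 0.14 and -1.38 ± 0.14. All 7 were thus called in the same direction in both, and the difference between the contrasts passed for none of them. Foxp3 had 0.37 ± 0.08 SE in WT mice (adjusted p = 0.000980), where the difference between the contrasts gave an adjusted p of 0.0767. Some lists had different counts in the 2 genotypes. Treg identity genes were higher in lymph node for 10 of 13 and lower for 1 in WT mice (median 0.60), beside 6 and 1 in KEP mice (0.27). Chemoattractant receptors were higher for 6 of 21 and lower for 5 in WT mice (median -0.17), beside 3 and 10 in KEP mice (-0.50). Genes of interleukin 2 and STAT signalling were higher for 7 of 18 and lower for 2 in WT mice, beside 3 and 5. The cytosolic ribosomal protein genes were called in neither direction in WT mice (median -0.09), beside 8 of 25 higher in KEP mice (0.17). The T cell receptor list was close, with 9 higher and 1 lower in WT mice (median 0.62) beside 10 and 1 (0.54). The list counts themselves were not tested against each other, and the members that passed the test of the difference were Capg among the identity genes, Ccr4, Ccr6 and Ccr10 among the receptors, Pim1 among the interleukin 2 genes and none of the ribosomal or T cell receptor lists.

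The test of the difference between the KEP and the WT contrast called 74 genes (0.577% of those tested), 72 with a lower ratio of lymph node to spleen in KEP mice (0.561%) and 2 with a higher ratio (0.0156%). An unadjusted p under 0.05 was reached by 920 genes (7.17%). Without the date block 16 passed. In edgeR's fit of all 31 libraries none passed, and 249 had an unadjusted p under 0.05, while DESeq2 with the block called 126. Without spleen library 3 of KEP mice it was 48 and without spleen library 1 of WT mice 47. Of the 72 genes, 33 were higher in WT lymph node and not called in KEP mice, 12 were higher in WT lymph node and lower in KEP TDLN, 12 were higher in both, 13 were lower in KEP TDLN alone and 2 were lower in both. As a description of these genes, which were selected on the ratio and so favour a high KEP spleen level, 69 of the 72 had a higher mean in KEP than in WT spleen and 36 a higher mean in KEP TDLN than in WT lymph node. Some differed more in lymph node: Pxdc1, picked after its values were seen, averaged 4.81 ± 1.38 (SD, n = 3) CPM in KEP TDLN and 18.9 ± 8.94 (SD, n = 3) in WT lymph node, but 5.996 ± 1.04 (SD, n = 3) in KEP spleen and 5.7 ± 0.386 (SD, n = 3) in WT spleen. In WT lymph node libraries 1 to 3 Pxdc1 was at 29.1, 14.7 and 12.7 CPM, so library 1 raised that mean. No title date is shared by the genotypes, so for a level in KEP against a level in WT mice the date and the genotype cannot be told apart. Each tissue contrast compares libraries of the same dates. Red cell and platelet markers summed to 35.2 to 274.6 CPM in WT spleen, NK and CD8 T cell markers to 256.6 to 452 and gamma-delta and invariant T cell markers to 111 to 153, and their part in the difference was not tested.

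**Figure D4:**
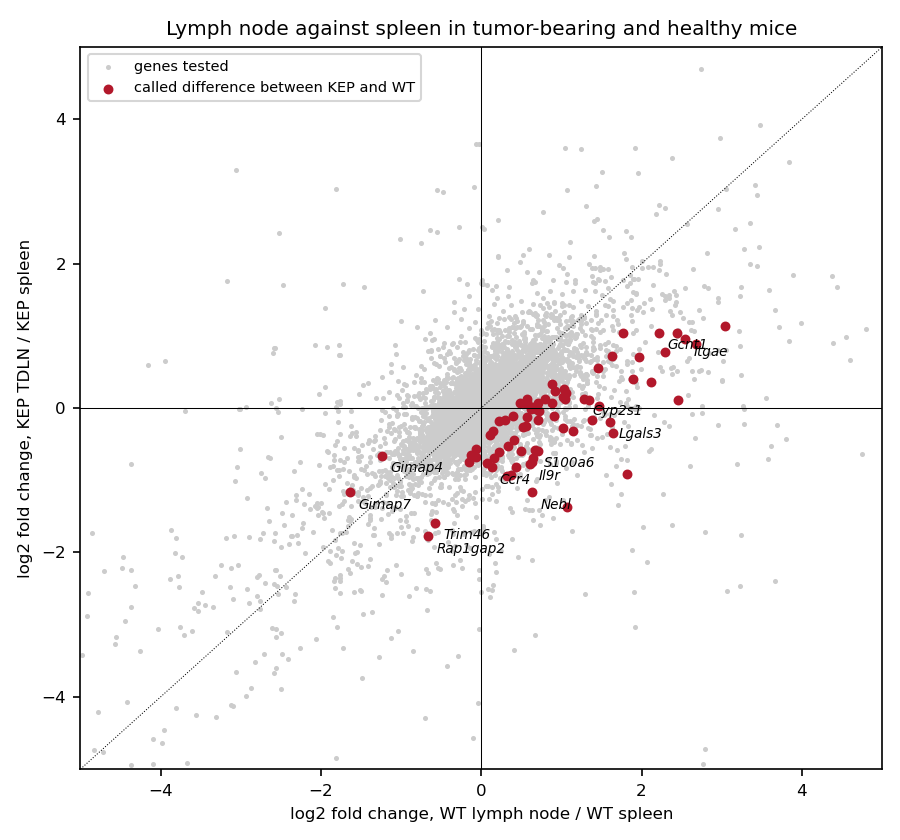
Log2 fold change of lymph node against spleen in WT (x axis) and KEP mice (y axis) for the genes tested (grey), with the 74 genes whose contrast differed between the genotypes in red and a dotted line where both are equal. Axes run from -5 to 5 and 59 genes lie outside, and the red genes lie below the line apart from Gimap4 and Gimap7.

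Il9r, the interleukin 9 receptor chain (chromosome 11, 32187541 to 32200279), had the smallest p of the difference. It was at 76.7, 58.3 and 80.7 CPM in KEP TDLN and 124, 102 and 143 in KEP spleen, but at 87.4, 80.9 and 82.6 in WT lymph node and 57.4, 56.1 and 50.5 in WT spleen. It was thus lower in TDLN than in spleen in KEP mice (log2 fold change -0.77 ± 0.09 SE) and higher in lymph node in WT mice (0.61 ± 0.09 SE), and the difference was -1.39 ± 0.12 SE (adjusted p = 2.41e-07). S100a6 had the same pattern, with 181, 167 and 202 CPM in KEP TDLN against 260.3, 250.03 and 314 in spleen, and 189, 151 and 127 in WT lymph node against 92.01, 98.2 and 99.1 in spleen (difference -1.26 ± 0.15 SE, adjusted p = 0.000144). Nebl, which encodes the actin-binding protein nebulette, did too, with 9.66, 7.46 and 10.8 CPM in KEP TDLN against 18.2, 21.1 and 23.1 in spleen, and 27.3, 17.2 and 17.8 in WT lymph node against 10.6, 12.8 and 15.7 in spleen (difference -1.80 ± 0.23 SE, adjusted p = 0.000310). In all 3 genes the KEP and the WT contrast differed in sign. Gcnt1 was higher in lymph node in both, but less so in KEP mice, at 71.2, 52.8 and 46.6 CPM in WT lymph node and 13.9, 11.46 and 11.02 in WT spleen against the KEP values given above (difference -1.18 ± 0.14 SE, adjusted p = 3.78e-05). Cyp2s1, a cytochrome P450, did not pass in KEP mice (30.5, 29.6 and 27.98 CPM in TDLN, 29.2, 25.05 and 26.2 in spleen) and was higher in lymph node in WT mice (41.4, 28.96 and 28.02 CPM in lymph node, 15.2, 11.98 and 12.9 in spleen), with a difference of -1.16 ± 0.16 SE (adjusted p = 0.000310). All 5 passed without the date block, with Gcnt1 closest to the threshold (adjusted p = 0.0389).

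Of the other genes with a lower ratio in KEP mice, Itgae, Lgals3, Vim and S100a4 were named after their values were seen. Itgae was at 580.2, 655 and 486 CPM in WT lymph node and 94.5, 106 and 93.3 in WT spleen, so its log2 fold change was 2.55 ± 0.16 SE in WT against 0.95 ± 0.15 SE in KEP mice (difference -1.60 ± 0.22 SE, adjusted p = 0.00186). Itgae was thus higher in lymph node in both genotypes, and each KEP spleen library was above each WT spleen library. Lgals3, galectin 3, was at 46.8, 32.5 and 52.1 CPM in KEP TDLN, 50.3, 43.3 and 55.01 in KEP spleen, 98.2, 58.8 and 46.5 in WT lymph node and 21.9, 20.7 and 22.6 in WT spleen (difference -1.79 ± 0.23 SE, adjusted p = 0.000687). Vim, the intermediate filament vimentin, had a difference of -0.78 ± 0.12 SE (adjusted p = 0.00132) and S100a4 of -1.38 ± 0.22 SE (adjusted p = 0.00623). Il1rl1 differed by -0.84 ± 0.15 SE (adjusted p = 0.00457), with 146, 172 and 141 CPM in WT lymph node and 135, 139 and 135 in WT spleen, both below every KEP library of either tissue. S100a4 and Il1rl1 did not pass without the date block (adjusted p of 0.170 and 0.463). The 2 genes with a higher ratio in KEP mice were Gimap4 (difference 0.58 ± 0.11 SE, adjusted p = 0.00742) and Gimap7 (0.47 ± 0.11 SE, adjusted p = 0.0351). Gimap4 was at 443, 538 and 498 CPM in KEP TDLN and 477, 439 and 498 in WT lymph node, and at 689, 771 and 891 in KEP spleen and 1073, 1007 and 1259 in WT spleen, so it was lower in lymph node in both genotypes. Neither passed without the date block (adjusted p of 0.608 and 1).

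**Figure D5:**
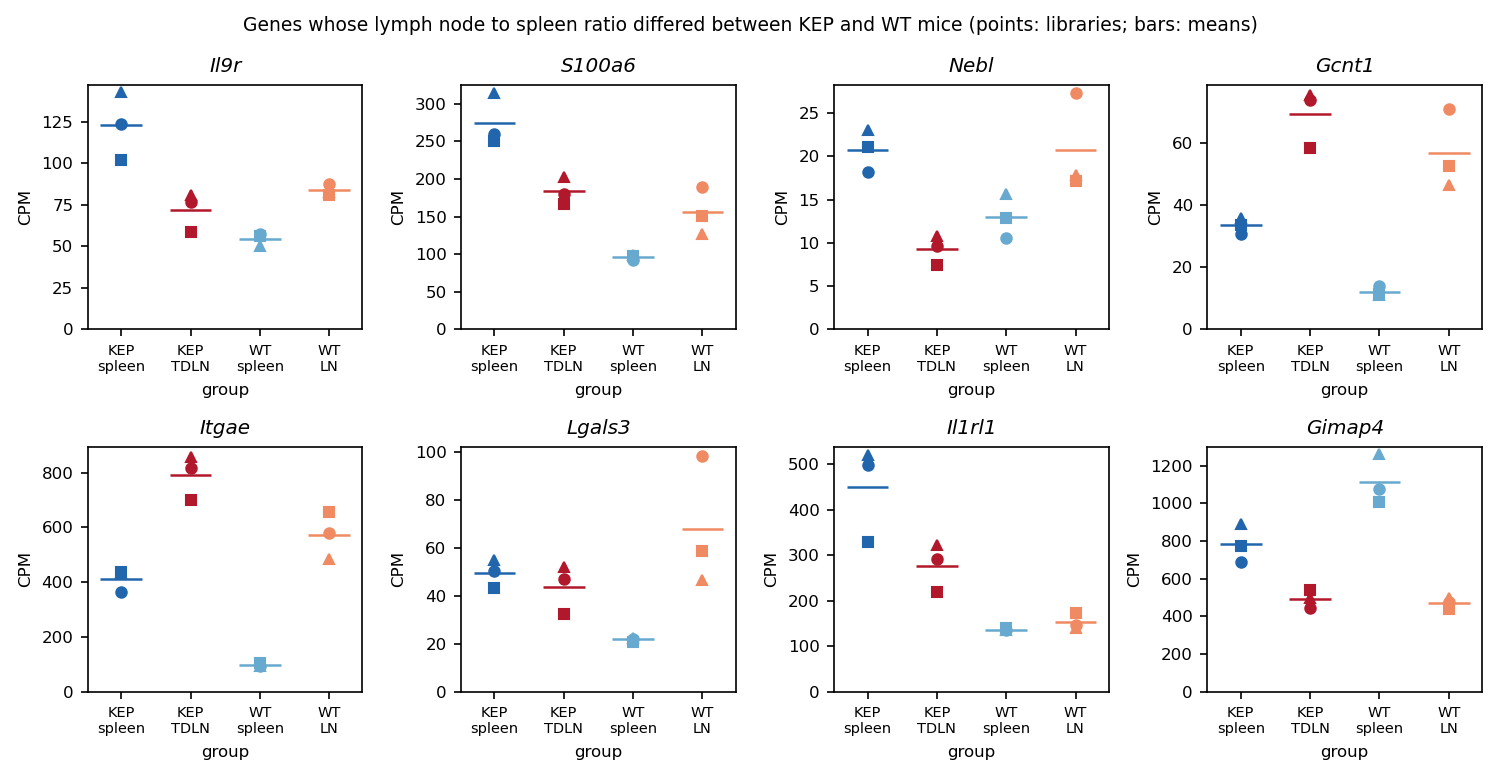
Levels in CPM from 0 of 8 genes whose contrast differed between the genotypes, with a point for each of the 3 libraries of KEP spleen, KEP TDLN, WT spleen and WT lymph node (LN) and bars at the means. In 7 of the 8 the KEP spleen mean is above the WT spleen mean, and Gimap4 is the exception. These 7 were selected for a lower lymph node to spleen ratio in KEP mice and Gimap4 for a higher one, so the choice favours this split. For levels in KEP against WT mice, date and genotype cannot be told apart.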

How the data were processed

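The deposited table holds raw read counts per gene (24594 genes) for 31 sorted Treg libraries. Per the labels' protocols, RNA was made into stranded mRNA libraries and read as single reads on a HiSeq2500. The submitters' processing notes name TopHat, TopHat2 2.1.0, HTSeq and the build GRCm38. Their roles, the gene annotation release and the strand setting are not given in the sources used here. Gene symbols and positions are those of the table, and 24286 of its identifiers were also found in the GENCODE annotation of GRCm38.

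From the counts the authors deposited, edgeR 4.0.16 (R 4.3.3) gave the results: TMM factors, a filter at a minimum count of 10, and a robust quasi-likelihood test over 24 libraries, those of lymph node, spleen, lung and blood (8 group means, 4 terms for the dates in the titles, 12 residual degrees of freedom). P-values were adjusted by Benjamini and Hochberg over all 12825 genes tested, and a gene was called at an adjusted p under 0.05. Standard errors were taken from the F statistic. CPM values are those counts divided by the TMM-scaled library size, brought to one scale. Contrasts were TDLN minus spleen in KEP mice, lymph node minus spleen in WT mice, and their difference. The KEP contrast was tested on simulated data with known changes in KEP TDLN. The simulation held no date effect, so it does not check the use of the date block or the test of the difference.

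Libraries were paired by title date, which the labels do not explain further. Within each group's deviations, same-date lymph node and spleen libraries correlated across genes at 0.483, 0.308 and 0.412 in KEP mice and 0.354, 0.188 and 0.129 in WT mice, each above the 0.1 taken to show pairing. Pairs of different dates ran from -0.328 to 0.00382 in KEP mice and from -0.232 to 0.0847 in WT mice. In WT mice the highest of these lay near the lowest same-date value. P-values measure the spread between these libraries, which are single KEP mice and WT pools.

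The members and the gene lists (31 lists, 485 symbols, of which 3 are not in the table used here) were chosen with earlier results of these data known. Named were the 12 genes each way with the smallest p among called genes with at least a 2-fold change, a mean of at least 5 CPM in the higher group and no overlap of libraries. Marker genes of other cell types, receptor and immunoglobulin segments and unnamed genes were left out of that choice. Up to 4 called members of each list, up to 3 of each marker list and 5 genes each way for the difference were added, with a few fixed genes such as Foxp3 and Ccr7, 120 genes in all. A few genes that the rule names are not reported here. Members named beyond the rule were chosen after their values were seen. Alternatives were other scaling (RLE, upper quartile), other filters (none, 50), DESeq2 1.42.0, limma 3.58.1 with voom, no date block, all 31 libraries, fewer libraries, a test against a 1.5-fold change, and leaving out each library. List counts without spleen library 2 or spleen library 3 were chosen after seeing the data.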

Additional observations from a re-analysis of the deposited data

Results flagged for a closer look

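For 12 named genes the contrast of lymph node against spleen differed between KEP and WT mice by the test of that difference in edgeR, with adjusted p-values over all genes tested. Among genes with a negative log2 fold change in KEP mice and a positive one in WT mice, the log2 difference (KEP minus WT) was -1.385 for Il9r (adjusted p = 2.41e-07), -1.259 for S100a6 (adjusted p = 0.000144), -1.8 for Nebl (adjusted p = 0.00031), -0.9476 for Ccr4 (adjusted p = 0.00269) and -0.8439 for Il1rl1 (adjusted p = 0.00457), and the WT log2 fold changes of Ccr4 and Il1rl1 were 0.13 and 0.16. Among genes with a positive log2 fold change in both, smaller in KEP mice, it was -1.177 for Gcnt1 (adjusted p = 3.78e-05) and -1.155 for Cyp2s1 (adjusted p = 0.00031), whose KEP log2 fold change was 0.13. Among genes with a negative log2 fold change in both, it was -1.111 for Rap1gap2 (adjusted p = 0.000493), -1.018 for Trim46 (adjusted p = 0.00713) and -0.5228 for Pim1 (adjusted p = 0.022), with the larger change in KEP mice. It was 0.5761 for Gimap4 (adjusted p = 0.00742) and 0.4736 for Gimap7 (adjusted p = 0.0351), with the larger change in WT mice. Rap1gap2, Il1rl1, Trim46, Gimap4, Gimap7 and Pim1 did not pass without the date block (adjusted p = 0.215, 0.463, 0.288, 0.608, 1 and 0.288). Gimap7 had an adjusted p of 0.22 without TDLN library 2 and Pim1 of 0.131 without KEP spleen library 3.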

How the results depend on the processing

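The counts of called genes moved by over 1.5 times under the settings given first. With no replicate block, the KEP contrast called 1420 genes (686 higher, 734 lower), the WT contrast 1150 and their difference 16. With all 31 libraries and no block they called 247 (75 higher, 172 lower), 297 and 0. Against a 1.5-fold change they called 272 (104 higher, 168 lower), 344 and 12. The difference called 309 genes with no filter on low counts and 126 with DESeq2. Leaving out 1 library at a time gave 1471 to 1903 genes in KEP mice (635 to 833 higher, 836 to 1094 lower), 1213 to 2133 in WT mice and 47 to 92 for the difference. In KEP mice the counts under the other scalings, filters and tools ran from 2329 to 2706, with 2648 from the 12 KEP libraries and 3326 from the 6 alone. Of 113 named genes called in KEP mice, 94 passed without the block, 35 passed in the fit of all 31 libraries, 31 passed in every alternative that gave a value, and none reversed. The cause of these moves was not tested. The median prior of 13.7 and the 12 residual degrees of freedom, with 3 libraries a group, limit what small changes could be called.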
